A study of Canis lupus familiaris with 12 samples.

Results

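The response of canine blood cells to a mitogen in the presence of ALA was measured by RNA sequencing in 6 of the 12 libraries of the series. The members were chosen by their titles: 3 libraries of peripheral blood mononuclear cells (PBMCs, the lymphocytes and monocytes of blood) cultured with concanavalin A (ConA) and 5-aminolevulinic acid (ALA), and 3 cultured with ALA and no ConA. Each group held the libraries numbered 1, 2 and 3, and libraries of the same number were compared with each other. The blood was from healthy, specific pathogen-free male beagles that served as blood donors, and the cells were separated by density gradient. No source used here gives the ages of the dogs. Both groups were cultured for 24 h in a serum-containing RPMI-based medium with 1 mM ALA, and the ConA+ALA group also received 0.5 µg/ml ConA. The other 6 libraries, 3 untreated and 3 with ConA alone at the same dose and time, served to test where the response with ALA differed from the response without it. The labels do not say whether a number stands for a separate animal, so the p-values cover the spread between these libraries, which may be technical.

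ConA is a plant lectin that cross-links glycoproteins on the cell surface, including the T cell receptor complex, and is a classical polyclonal activator of T cells. An activated T cell switches on cytokine genes and the high-affinity interleukin-2 receptor, enlarges its ribosome and biosynthetic capacity, and then enters S phase. ALA is the precursor from which cells build porphyrins and heme, and an excess of it bypasses the regulated step of heme synthesis.

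Depth was similar in the 6 libraries, with 13390692 to 19355701 exon reads and 11856 to 12917 genes at 10 or more reads. Libraries of number 1 stood apart from the others: the mitochondrial genome took 3.59% of exon reads with ALA and 4.82% with ConA and ALA, against 11.9% to 17.9% in the libraries of numbers 2 and 3. The share of intron reads among gene reads was 34.1% to 43.3% with ALA and 29.6% to 35.7% with ConA and ALA, and was lower with ConA in all 3 numbers. The T cell receptor gene CD3E, the B cell receptor gene CD79A and the monocyte growth factor receptor gene CSF1R were read in all 6 libraries, at 459, 446 and 347 CPM, 1103, 1925 and 1687 CPM and 272, 66.3 and 37.1 CPM in the libraries with ALA numbered 1, 2 and 3 (CPM, read counts scaled to the library size after TMM normalization).

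ConA changed 4022 of the 13358 genes tested in ALA-treated cells at an adjusted p under 0.05 (30.1%; edgeR's quasi-likelihood test with the number as a block). Of these, 2109 rose (15.8% of the genes tested) and 1913 fell (14.3%); 779 rose and 844 fell at least 2-fold. The change had the same direction in 3 of 3 numbers for 3977 of the 4022. The values of the groups did not overlap for 2784 of the 4022, against 3776 (28.3%) of all genes tested. Without the block, 680 genes rose (5.09%) and 405 fell (3.03%), and 680 and 404 of them were among those called with the block. Leaving out number 1 left 1210 rises and 886 falls, leaving out number 2 left 1372 and 785, leaving out a library of number 1 left 1398 or 1424 rises and 1119 or 1131 falls, and leaving out the ALA library of number 2 left 1257 falls. In the text below, a gene rose or fell where it passed this test. Counts of list members that rose or fell stand against the 15.8% and 14.3% of all genes tested. Log2 fold changes are ConA+ALA against ALA with their SE, and values for 3 libraries are given in the order of the numbers 1, 2 and 3.

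**Figure D1:**
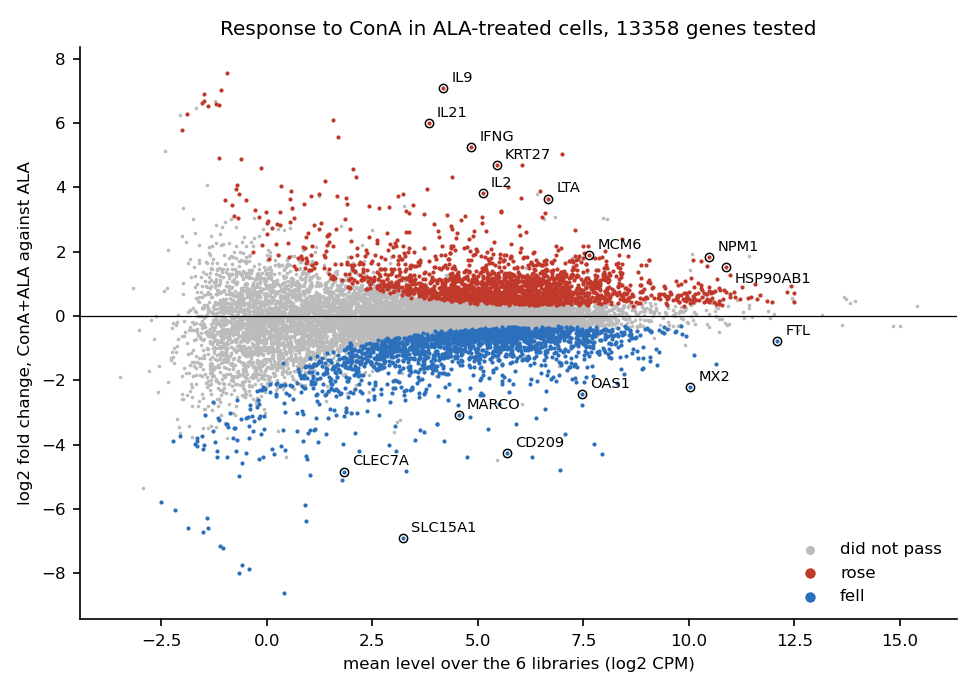
Log2 fold change (ConA+ALA against ALA, vertical axis) against mean level over the 6 libraries (log2 CPM, horizontal axis) for the genes tested; red points rose, blue points fell and grey points did not pass, and 1 gene with 0 reads in all 6 libraries has no point. Of the labelled genes the cytokine genes IL9, IL21 and IFNG have the highest fold changes, and SLC15A1 and CLEC7A the lowest.

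T cell activation genes rose broadly. Of 24 tested members of the list of receptors and transcription factors that T cells induce on activation, 18 rose and 0 fell, with a median log2 fold change of 1.66 against -0.06 over all genes tested. IL2RA, the inducible chain of the interleukin-2 receptor (chromosome 2, 29894125 to 29944643 in CanFam3.1), was at 13.4, 10.3 and 24.5 CPM with ALA and 149.8, 101 and 78.6 CPM with ConA and ALA. Every ConA value was above every ALA value, a log2 fold change of 2.79 ± 0.36 (adjusted p = 0.00052). TNFRSF9, the costimulatory receptor 4-1BB, went from 2.36, 1.64 and 0.776 CPM to 47.4, 16.8 and 13.8 CPM (3.95 ± 0.29, adjusted p = 6.3e-07). ICOS, a costimulatory receptor of the CD28 family, went from 24.4, 14.6 and 16.3 CPM to 144, 74.8 and 56.4 CPM (2.25 ± 0.18). Neither gene overlapped between the groups. The inhibitory receptor CTLA4 rose by 1.74 ± 0.13, from 42.7, 65.2 and 47.9 CPM to 180.2, 189.9 and 146 CPM. CD69, an early activation antigen, was at 41, 68.1 and 34.6 CPM and 135, 154 and 121 CPM, a rise of 1.58 ± 0.19 (adjusted p = 4.7e-05). CD40LG, the ligand with which helper T cells engage B cells, rose by 1.53 ± 0.18 from 27.8, 35.9 and 37.6 CPM to 73.4, 106 and 115 CPM. The orphan nuclear receptor genes NR4A3 and NR4A1, induced by antigen receptor signalling, rose by 2.71 ± 0.20 and 3.08 ± 0.28. NR4A3 was even among libraries, at 36, 36.1 and 36.9 CPM with ConA, while NR4A1 overlaps ATG101 in the annotation and, as it is not stated whether counting used strand or how overlaps were resolved, its reads may be shared. IRF4, EGR1, NR4A2, CD83, NFKBID and HAVCR2 did not pass. Without the block 14 of the 24 rose, and without number 1 only 11 rose.

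Cytokine genes had the highest median of the lists. Of 17 T cell cytokine genes tested, 12 rose and TNFSF11 (RANKL) fell, with a median log2 fold change of 3.79. IFNG, encoding the interferon of T helper type-1 and cytotoxic cells (chromosome 10, 10406867 to 10411698), was at 1.74, 0.393 and 3.1 CPM with ALA and 62.4, 42.2 and 61.9 CPM with ConA and ALA. The lowest ConA library was far above the highest ALA library, and the log2 fold change was 5.25 ± 0.55 (adjusted p = 0.00026). LTA, encoding lymphotoxin alpha, was at 9.97, 13.4 and 24.4 CPM and 178, 198 and 186 CPM, a rise of 3.65 ± 0.21 (adjusted p = 5.2e-07), the lowest adjusted p among all list members. TNF rose by 2.58 ± 0.24, from 7.32, 4.78 and 6.91 CPM to 48.7, 22.4 and 46.7 CPM. IL2, the T cell growth factor (chromosome 19, 17750780 to 17756394), went from 1.86, 5.63 and 6.44 CPM to 32.6, 64.7 and 96.3 CPM. Number 1 had the lowest IL2 in both groups and the groups did not overlap (3.81 ± 0.57, adjusted p = 0.0017). IL21, a follicular helper cytokine, went from 0.166, 0.131 and 1.24 CPM to 34.4, 26.9 and 22.6 CPM (a fitted fold of 64.1, adjusted p = 2.7e-05). The helper type-2 cytokine IL4 had reads in number 3 alone without ConA, at 0, 0 and 0.31 CPM, and reached 4.1, 6.88 and 6.53 CPM with ConA (6.08 ± 0.84). IL9 had the largest fold change of the list, from 0, 0 and 1.01 CPM to 18.9, 49.8 and 39.3 CPM (7.09 ± 0.70); IL4 overlaps KIF3A, as IL13 does, and IL9 overlaps SLC25A48 on the other strand. CSF2 (GM-CSF) and IL13 rose from 2.23, 3.93 and 18.6 CPM to 70.8, 109 and 108 CPM and from 3.27, 5.69 and 40.4 CPM to 114, 181 and 191 CPM. In both, as in IL17A, the library of number 3 was the highest without ConA. IL17A was at 1.95, 3.01 and 65.5 CPM and 177, 245 and 272 CPM, and its call (adjusted p = 0.045) was lost without the block (0.23), without number 1 or number 2 (0.30 each) and without any library except the ConA+ALA library of number 3. IL10, an anti-inflammatory cytokine, did not pass (-0.47 ± 0.34, adjusted p = 0.34), and its groups overlapped. Without the block 10 of the 17 rose and 0 fell, and without number 1 only 7 rose. CSF2 and IL13 were among those lost without number 1 (adjusted p 0.11 and 0.13), IL13 also without number 2 (0.072), and TNFSF11 lost its call without number 2 (0.15) and without the ALA or the ConA+ALA library of number 2 (0.051 and 0.059).

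Among the genes that report cytokine signalling, CISH and SOCS1, inhibitors induced by the JAK-STAT pathway, rose by 1.70 ± 0.22 and 1.52 ± 0.25. They were among 5 rises in 13 genes tested, a list with 0 rises without the block. The other rises were BCL2L1, a survival gene, and the receptor chains IL2RB and IL2RG; the transcription factor genes STAT3, STAT5A and STAT5B did not pass. BCL2L1 lost its call without number 2 (adjusted p 0.062), and IL2RG, which overlaps MED12, lost it without number 1 (0.053), either of its libraries, or the ConA+ALA library of number 2.

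Chemokine and effector genes rose in part. Of 13 chemokine genes tested, 8 rose and 0 fell (median 1.75; 7 rose without the block). CCL22, which attracts CCR4-bearing T cells, went from 2.23, 0.654 and 2.72 CPM to 43.8, 60.7 and 15.2 CPM (4.33 ± 0.78, adjusted p = 0.0054), with the lowest ConA value in number 3. CCL20, the ligand of CCR6, went from 0.207, 0.0654 and 0.621 CPM to 4.88, 5.68 and 4.04 CPM (4.18 ± 0.73). CCL3 and CCL4, which attract T cells and monocytes, rose by 2.02 ± 0.24 and 1.75 ± 0.15; they overlap each other in the annotation on opposite strands. CCL3 was at 97.7, 84.2 and 126 CPM and 453, 387 and 404 CPM. CXCL8, CXCL16, CCL7, CCL8 and CCL13 did not pass. Of 6 cytotoxic genes, GZMB, GZMA, FASLG and PRF1 rose and GZMK fell. GZMB (granzyme B) went from 49.6, 30.2 and 37.6 CPM to 465, 209.5 and 147 CPM (2.66 ± 0.21, adjusted p = 2.1e-06), highest in number 1. GZMK (granzyme K) fell from 90, 62.1 and 71 CPM to 20.7, 20.6 and 19.8 CPM (-1.84 ± 0.28). Without the block GZMB, FASLG and GZMK kept their calls, with adjusted p of 0.0093, 0.038 and 0.0083. Of 19 inflammatory mediators of myeloid and stromal cells, 4 rose and 2 fell (median 0.48), a share near the 30.1% called among all genes tested. NFKBIA, the inhibitor that NF-kB itself induces, rose by 1.21 ± 0.20, and IL6 did not pass (0.48 ± 0.95; 14.1, 8.38 and 44.7 CPM against 26.9, 17.6 and 20.4 CPM). Without the block TNFAIP6, which overlaps NEB, alone rose and 0 fell; 7 rose in a fit of the 6 libraries alone, and 0 fell without number 1 but 4 without number 3 or its ALA library.

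**Figure D2:**
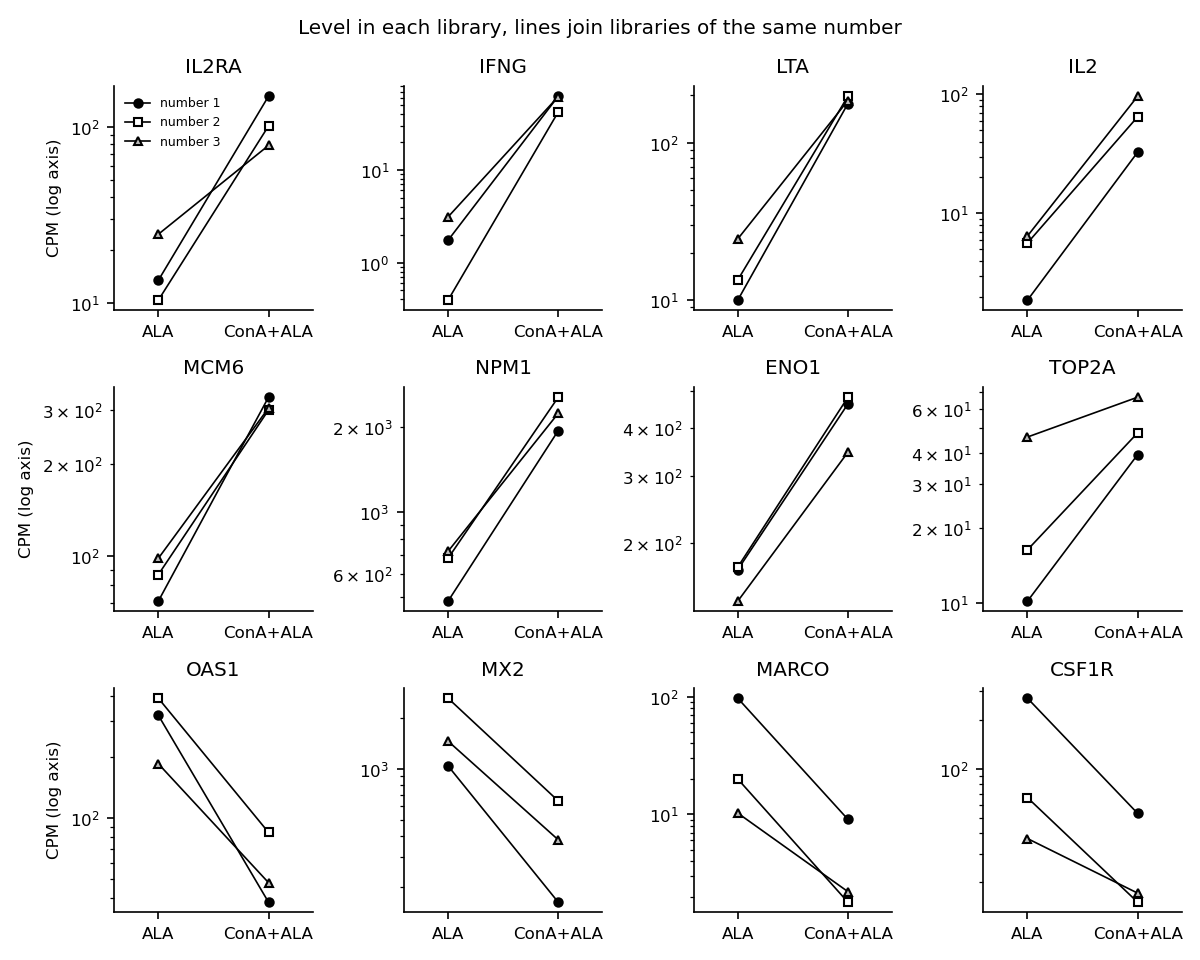
Level of 12 genes in each library (CPM, log axis) with ALA and with ConA and ALA; lines join libraries of the same number. IL2RA, IFNG, LTA, IL2, MCM6, NPM1 and ENO1 rose and OAS1 and MX2 fell with no overlap between the groups, while TOP2A and CSF1R overlapped and moved in the same direction in all 3 numbers.

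Ribosome biogenesis was the list in which every tested member rose: 25 of 25, with a median log2 fold change of 1.38 and no overlap between the groups in any of the 25; 22 rose without the block. NPM1 (nucleophosmin), a chaperone of the nucleolus, was at 482, 684 and 724 CPM with ALA and 1934, 2539 and 2227 CPM with ConA and ALA (1.83 ± 0.14, adjusted p = 9.5e-07). Only 72.2% of its exon reads were unique, so copies may share its counts. FBL (fibrillarin), the methyltransferase of ribosomal RNA, went from 75.5, 118 and 103 CPM to 339.8, 379 and 309 CPM (1.81 ± 0.14), and NCL (nucleolin) from 665, 769 and 676 CPM to 2265, 2214 and 1695 CPM (1.54 ± 0.13). RRS1, an assembly factor of the large subunit, had the largest rise of the list (1.94 ± 0.15), and NOP16 the smallest (0.89 ± 0.21), a call lost without number 1 or number 2 (adjusted p 0.099 and 0.061).

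Genes of DNA replication rose as well, while genes of mitosis mostly did not pass. Of 33 S phase genes tested, 26 rose and 0 fell (median 1.37; 17 rose without the block). MCM6, a subunit of the replicative helicase (chromosome 19, 38627183 to 38660280), was at 70.9, 86.6 and 98 CPM with ALA and 331, 301 and 305 CPM with ConA and ALA. The libraries with ConA lay close together and well above those without (1.89 ± 0.15, adjusted p = 1.1e-06). All 6 helicase subunits MCM2, MCM3, MCM4, MCM5, MCM6 and MCM7 rose, by 0.95 (MCM7) to 2.53 (MCM5); MCM4 was lost without number 3 (adjusted p 0.061), and MCM4 and MCM7 without the block. CDC6 and CDT1, which load the helicase at origins, rose by 3.19 ± 0.67 and 1.84 ± 0.16; CDC6 overlaps RARA on the same strand and TOP2A on the opposite strand, and CDT1 overlaps PIEZO1 on the opposite strand. CDC6 was lost without number 2 (adjusted p 0.12) or the ALA library of number 1 (0.054). TYMS, the enzyme that makes thymidylate, went from 28.6, 40.9 and 47.8 CPM to 107, 93.8 and 126 CPM (a fitted fold of 2.83, adjusted p = 8.6e-06). PCNA, the sliding clamp of DNA polymerase, rose by 1.72 ± 0.19. RRM2, the regulated subunit of ribonucleotide reductase, went from 3.72, 6.87 and 15.5 CPM to 68.9, 48.2 and 38 CPM (2.64 ± 0.57, adjusted p = 0.012; 0.15 without number 2 and 0.056 without its ALA library). The cyclin E genes CCNE1 and CCNE2 did not pass, at 1.26 ± 0.46 and 1.37 ± 0.51.

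Of 31 G2 and M phase genes tested, 4 rose (CDC20, TOP2A, CDK1 and KIF11) and 0 fell, a share below the 15.8% of all genes, with a median log2 fold change of 0.48. With ConA alone, against untreated cells, 27 of the same 31 rose (adjusted p under 0.05, where 21.3% of all genes rose), with a median of 1.71. For S phase genes the counts were 28 of 33 with ConA alone, with a median of 1.74. CDC20, the activator of the anaphase-promoting complex, was at 4.51, 8.38 and 10.5 CPM with ALA and 19.7, 14.4 and 22.6 CPM with ConA and ALA (1.36 ± 0.27, adjusted p = 0.0012). TOP2A, the topoisomerase of mitotic chromosomes, was at 10.1, 16.3 and 46.2 CPM and 39.3, 48 and 66.7 CPM (1.29 ± 0.28), and its groups overlapped through number 3. MKI67, the proliferation marker Ki-67, was at 16.2, 29.3 and 96 CPM and 25.5, 24.2 and 102 CPM and did not pass (0.13 ± 0.41, adjusted p = 0.85). Number 3 was above the other libraries in both groups, and the ALA library of number 3 alone was above both ConA libraries of numbers 1 and 2. CCNA2 (cyclin A2) was at 1.74, 2.55 and 5.75 CPM and 7.03, 4.56 and 5.7 CPM with ALA, and at 1.62, 1.16 and 1.63 CPM untreated and 13.8, 6.26 and 9.38 CPM with ConA alone. Summed over the 31 genes, the level was 132 to 467 CPM with ALA and 289 to 479 CPM with ConA and ALA, against 103 to 242 CPM untreated and 380 to 483 CPM with ConA alone. The number of G2 and M rises depended on the libraries: 11 without number 3, 10 without the ALA library of number 3, 1 without number 2, 2 without number 1 or either of its libraries, and 0 without the block. It was also higher by other tools, at 7 in a fit of the 6 libraries alone, 8 by DESeq2 and 9 by limma-voom. The calls of CDK1 and KIF11 were lost without number 1 or number 2, and that of TOP2A without number 2 (adjusted p 0.076).

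The difference between the ConA responses with and without ALA was below 0 for 31 of the 31 G2 and M phase genes, with a median of -1.32 on the log2 scale. At an unadjusted p under 0.05, 16 of the 31 differed, against 1004 (7.52%) of all genes tested, and 0 passed after adjustment over all genes by edgeR (2, TOP2A and CCNB2, by DESeq2 and 0 by limma-voom). For TOP2A the difference was -1.56 ± 0.40 (95% interval -2.44 to -0.69, adjusted p = 0.46; 0.02 by DESeq2), and for CCNA2 it was -1.87 ± 0.55 (interval -3.03 to -0.71, adjusted p = 0.46). Among S phase genes the difference was below 0 for 29 of 33, with a median of -0.50, and 11 had an unadjusted p under 0.05. Over all genes tested it was below 0 for 6717 of 13358, and for 1490 of the 1896 genes that rose both with and without ALA. Other lists shifted too. It was below 0 for 17 of 17 heat shock, 20 of 21 cholesterol synthesis and 23 of 25 ribosome biogenesis genes (6, 6 and 3 at an unadjusted p under 0.05). For T cell markers it was above 0 for 19 of 22 (10 of the 22 at that p), and 6 of 9 natural killer cell markers had that p. The median difference of the G2 and M genes was between -1.43 and -1.08 when each number was left out. The genes of a list move together, so these counts describe the list and carry no test of it.

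**Figure D3:**
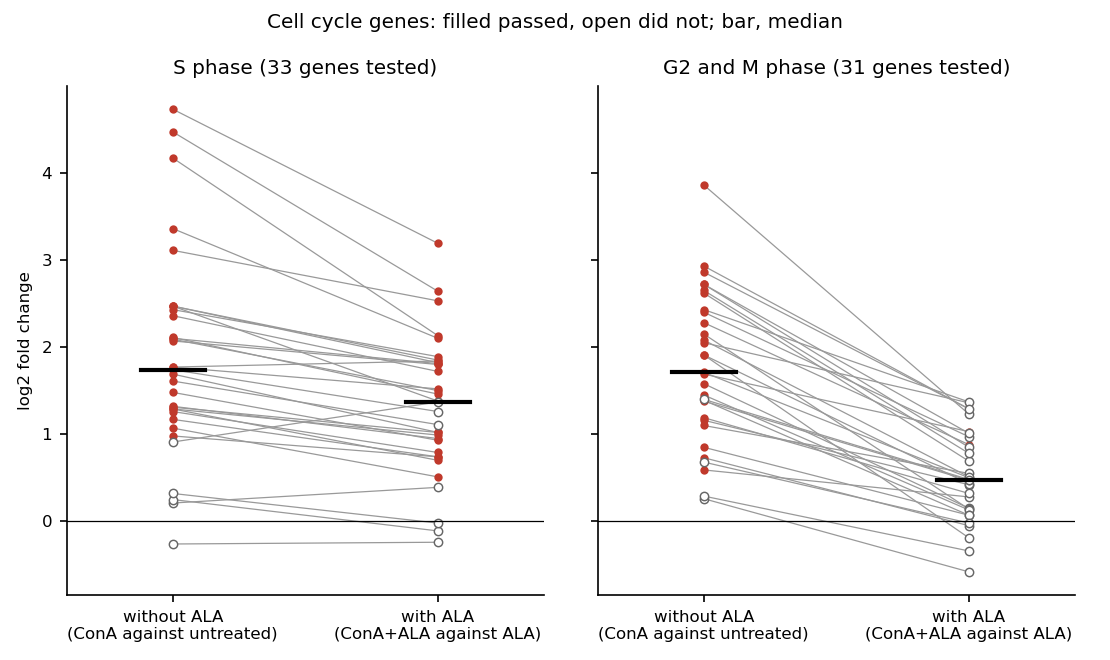
Log2 fold changes of the 33 S phase genes and 31 G2 and M phase genes in response to ConA without ALA (ConA against untreated) and with ALA (ConA+ALA against ALA); filled points passed, open points did not, lines join the same gene and bars are medians. The G2 and M phase median was 1.71 without ALA and 0.48 with ALA, and the S phase median 1.74 and 1.37.

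Genes linked to quiescence fell in part. Of 16 tested, 9 fell and RBL1 rose (median -0.49; 2 fell without the block, and 2 to 4 when number 1, number 2, a library of number 1 or the ALA library of number 2 was left out). CDKN2D, an inhibitor of CDK4 and CDK6, fell from 15.7, 15.7 and 9.08 CPM to 6.3, 6.06 and 4.6 CPM (-1.24 ± 0.23, adjusted p = 0.00083). CDKN1B (p27) fell from 185, 144 and 139.8 CPM to 79.1, 71.1 and 102 CPM (-0.92 ± 0.18), with an adjusted p of 0.069 without number 2.

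Metabolic genes rose in part. Glycolysis had 8 rises and 3 falls in 18 genes tested (median 0.45; 4 rises and 0 falls without the block). HK2, the inducible hexokinase, went from 7.04, 2.75 and 6.05 CPM to 43.8, 20.4 and 21.9 CPM (2.46 ± 0.26, adjusted p = 1.3e-05). ENO1 (enolase 1) went from 170.2, 173 and 141 CPM to 463, 483 and 346 CPM (1.41 ± 0.13, adjusted p = 3e-06). The groups of both genes stood apart. PFKP (phosphofructokinase, platelet type) rose by 1.21 ± 0.17 and the glucose transporter gene SLC2A1 by 1.20 ± 0.23. SLC16A3, a lactate exporter that monocytes also express, fell from 11.8, 1.83 and 1.71 CPM to 1.21, 0.449 and 0.0919 CPM, a call lost without the block, number 1 or its ALA library (adjusted p 0.1, 0.14 and 0.073). Of the 3 falls 1 was left without number 1, number 2, either library of number 2, or the ALA library of number 1. Genes of serine, folate and nucleotide synthesis had 10 rises in 16 tested (median 1.07; 6 without the block), and CTPS1, a CTP synthase, fell (-0.61 ± 0.11). MTHFD1L, a mitochondrial folate enzyme, went from 34.3, 27.7 and 34.8 CPM to 144, 126 and 118 CPM (2.00 ± 0.14, adjusted p = 6.3e-07). SHMT2, the mitochondrial serine hydroxymethyltransferase, went from 43.5, 73.9 and 96.3 CPM to 233, 380.3 and 337 CPM (2.18 ± 0.18). SHMT1, its cytosolic counterpart, did not pass (-0.27 ± 0.13). Amino acid transporters had 5 rises and 1 fall in 12 tested, of which only the rise of the glutamine transporter gene SLC38A5 (1.76 ± 0.23) passed without the block, and 3 rises passed without number 1, number 2 or any of their libraries. Cholesterol synthesis had 10 rises in 21 (median 0.39), 1 without the block, 3 without number 1, 5 without number 2, and 5 or 6 without any of their libraries. Its largest rises were small, such as HMGCS1 (0.85 ± 0.18) and ACAT2 (0.84 ± 0.15), which overlaps TCP1.

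Nuclear genes of the respiratory chain rose by small amounts. Of 28 complex I genes, 20 rose and 0 fell, with a median of 0.53, and 1 rose without the block; 10 rose without number 1, 13 without number 2 and 11 without the ConA+ALA library of number 1. NDUFB6 was at 27, 31.4 and 33.5 CPM and 62.2, 57.8 and 63.8 CPM (1.01 ± 0.17, adjusted p = 0.00031). Of 21 genes of complexes III and IV and ATP synthase, 17 rose (median 0.77; 8 without the block). CYCS (cytochrome c) went from 97.1, 135 and 199 CPM to 311, 384 and 486 CPM (1.49 ± 0.17), and UQCR10, a complex III subunit, from 22.2, 25.6 and 26 CPM to 54.2, 54.4 and 59 CPM (1.19 ± 0.13). The citric acid cycle had 6 rises in 14 (median 0.38; 1 without the block, and 3 without number 2 or either library of number 1), with the largest in IDH3A (1.08 ± 0.14). The share of reads from the mitochondrial genome, given above, ran from 3.59% to 16.5% with ALA and from 4.82% to 17.9% with ConA and ALA; its part in these results was not tested.

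Most chaperone genes of the heat shock list rose. Of 17 heat shock genes tested, 13 rose and 0 fell (median 1.10; 7 without the block). HSP90AB1, the constitutive cytosolic HSP90, was at 904, 1016 and 971 CPM and 3054, 2999 and 2335 CPM (1.53 ± 0.14, adjusted p = 3e-06). HSPA8, the constitutive HSP70, was at 1086, 1287 and 1142 CPM and 2811, 3231 and 2488 CPM (1.27 ± 0.13; 87.2% of its reads were unique). HSPA5 and HSP90B1, chaperones of the endoplasmic reticulum, did not pass (0.16 ± 0.14 and 0.06 ± 0.14). In the integrated stress response, 8 of 17 genes rose and 2 fell (median 0.73; 3 rises and 0 falls without the block, 3 rises without number 1, 4 without number 2, and 4 or 5 without either library of number 1 or the ConA+ALA library of number 2). PYCR1, an enzyme of proline synthesis, went from 4.01, 2.94 and 4.35 CPM to 36.5, 24.9 and 21.3 CPM (2.86 ± 0.24, adjusted p = 1.7e-06), and CTH, which makes cysteine, rose by 2.34 ± 0.34. The transcription factor gene ATF4 rose by 0.73 ± 0.14, a call lost without the block (adjusted p = 0.47), and DDIT3, which encodes the stress factor CHOP and overlaps the more highly counted MARS, fell (-0.62 ± 0.20), a call lost without the block, number 1, number 2 or any library except the ALA library of number 3.

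Interferon-stimulated genes fell. Of 20 tested, 18 fell and 0 rose (14.3% of all genes fell), with a median log2 fold change of -1.67, and the groups did not overlap in 19 of the 20; 13 fell without the block. OAS1, a sensor of double-stranded RNA (chromosome 26, 10385447 to 10396733), was at 320.1, 388 and 184 CPM with ALA and 38.3, 84.6 and 47.8 CPM with ConA and ALA (-2.42 ± 0.25, adjusted p = 4.6e-05). The related genes OAS2 and OAS3 fell by 1.96 and 1.82 on the log2 scale. MX2, an antiviral GTPase, was at 1038, 2607 and 1454 CPM and 162, 644 and 379 CPM (-2.21 ± 0.24). Every ConA library was below every ALA library, and the call was lost without the block (adjusted p = 0.08). DHX58, an RNA helicase of the antiviral response, fell from 146, 153 and 101 CPM to 37.1, 63.3 and 40 CPM (-1.52 ± 0.15, adjusted p = 5.7e-06). STAT2, a transcription factor of the interferon pathway, fell from 209, 191 and 176 CPM to 80.8, 96.5 and 91.6 CPM (-1.10 ± 0.14). RSAD2 (viperin) had the largest fall of the list (-3.35 ± 0.74), lost without number 1 or number 2 or the ConA+ALA library of either (adjusted p 0.054 to 0.20). ISG20 and IFIT5 did not pass. IFNG rose in the same libraries, as given above. With ConA alone 19 of the 20 fell, with a median of -1.67, and the median difference between the responses was 0.13.

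Monocyte and macrophage markers fell in the same libraries. Of 22 tested, 18 fell and 0 rose (14.3% of all genes fell), with a median log2 fold change of -1.76. The groups did not overlap in 8 of the 22, against 28.3% of all genes tested. With ConA alone 17 of the 22 fell, with a median of -1.92, and the median difference between the responses was 0.09. The summed level of these markers was 1537 to 6894 CPM with ALA and 1038 to 2101 CPM with ConA and ALA, and it was lower with ConA in all 3 numbers. In bulk samples fewer cells of a type and less RNA per cell cannot be told apart. MARCO, a scavenger receptor of macrophages (chromosome 19, 30996347 to 31034487), was at 96.8, 20 and 10.2 CPM and 9.06, 1.79 and 2.21 CPM (-3.09 ± 0.27, adjusted p = 2e-06). CSF1R was at 53, 15 and 17.1 CPM with ConA and ALA (-1.95 ± 0.26, adjusted p = 0.00023). In both, number 1 was the highest library of its group, and the adjusted p without the block was 0.11 and 0.13. C1QA, a chain of complement C1q, fell from 44.4, 37.8 and 7.45 CPM to 2.67, 3.89 and 1.56 CPM (-3.36 ± 0.40; adjusted p 0.00015 with the block and 0.009 without it). FCGR1A, ITGAM, S100A12 and MRC1 did not pass. Without the block 4 of the 22 fell, and 11 fell without number 2 or without the ConA+ALA library of number 1. Some interferon-stimulated genes are also expressed by monocytes; the part of these cells in the fall of that list was not tested.

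Other myeloid markers moved less evenly. CD209, a lectin of dendritic cells and macrophages, fell from 183, 99.8 and 14.1 CPM to 5.87, 8.08 and 0.551 CPM (-4.26 ± 0.43, adjusted p = 0.00013). Of 12 dendritic cell markers, 4 fell and BATF3 rose, from 12.9, 16.4 and 28.3 CPM to 116, 202 and 207 CPM (3.20 ± 0.32); activated T cells express BATF3 too, and it stands in both lists. The dendritic falls numbered 1 or 2 without the block, without number 1 or number 2, or without the ALA library of number 1, either library of number 2 or the ConA+ALA library of number 3. Of 10 neutrophil markers, 5 fell (1 without the block, number 1, number 2 or the ConA+ALA library of number 1, and 3 without the ALA library of number 1 or either library of number 2), among them S100A8, a calcium-binding protein of neutrophils and monocytes, at 138, 114 and 84.1 CPM and 82.4, 66.9 and 73.8 CPM; its call was lost without number 1 or number 2 (adjusted p 0.091 and 0.17). The summed level of the 10 genes was 505, 288 and 2336 CPM with ALA and 904, 696 and 2403 CPM with ConA and ALA, higher with ConA in all 3 numbers. MMP9, a gelatinase, made up most of that sum with ConA, at 249, 51.4 and 2243 CPM and 784, 569.8 and 2324 CPM, and did not pass (1.43 ± 0.85, adjusted p = 0.27); limma-voom called 1 rise in the list.

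Markers of T cells were split. The T cell receptor genes CD3D, CD3E and CD3G were at log2 fold changes of 0.18 ± 0.15, 0.05 ± 0.12 and -0.18 ± 0.17 and did not pass; CD3D and CD3G overlap each other. Of 22 T cell markers, 10 fell and CD28 rose (median -0.51; 3 fell and 0 rose without the block, and CD28 was lost without number 1, adjusted p 0.082). Markers of naive and resting T cells went both ways: IL7R, TCF7 and LEF1 fell, while CCR7 and CD27 did not pass and lay above 0 (0.20 ± 0.17 and 0.38 ± 0.16). IL7R, the interleukin-7 receptor, fell by 1.22 on the log2 scale, and the transcription factor genes TCF7 and LEF1, which overlaps HADH, by 1.03 and 0.77; all lost their calls without the block (adjusted p 0.13, 0.12 and 0.17). CD7 fell from 62.6, 84.6 and 66.2 CPM to 22.4, 24.5 and 26.8 CPM (-1.53 ± 0.15, adjusted p = 4.4e-06) and CD5 from 198, 251 and 196 CPM to 121, 147 and 107 CPM (-0.78 ± 0.12). Of 13 B cell markers, 5 fell and CD79A rose by 0.33 ± 0.12 (median -0.61). Without the block 0 passed, without number 2 only 3 fell, and the rise of CD79A was lost when any number was left out (adjusted p 0.071 to 0.34). Of 9 natural killer cell markers, TBX21 and IL2RB rose, which activated T cells also express, and NCR1, KLRK1, KLRD1, KLRB1, NCR3, CD160 and EOMES did not pass. That share of rises is near the 15.8% of all genes tested. TBX21 (T-bet) went from 31.1, 36.7 and 21 CPM to 148, 108 and 68.2 CPM (1.82 ± 0.20, adjusted p = 1.8e-05). Platelet and red cell markers had 0 calls in 12 tested by edgeR, with a median of -0.44. At an unadjusted p under 0.05 1 was below 0, and DESeq2 called 0 and limma-voom 1.

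Genes that handle ALA, porphyrins and iron changed in part, where 15.8% of all genes tested rose and 14.3% fell. SLC15A1, the peptide transporter PEPT1, which also carries ALA (chromosome 22, 48777630 to 48827533), was at 30.9, 18.8 and 5.98 CPM with ALA and 0.345, 0 and 0 CPM with ConA and ALA. The 3 libraries without ConA were all above those with it (-6.91 ± 0.73, adjusted p = 2.1e-05; 0.0036 without the block). It was among 4 falls in 10 transporter genes tested; the others, ABCG2, SLC6A6 and SLC36A1, lost their calls without the block, and of the 4 only 1 fell without number 1 or number 2, and 2 without either library of number 1. Of 12 heme synthesis genes, 3 rose by small amounts (among them SLC25A38 and UROD, which overlaps HECTD3; 0 without the block, 1 without number 1, number 2 or any of their libraries). ALAS1, the first enzyme of the pathway, did not pass (428, 457 and 517 CPM against 533, 643 and 667 CPM, 0.39 ± 0.36, adjusted p = 0.47), although every ConA value was above every ALA value, and a fit of these 6 libraries alone gave an adjusted p of 0.015. FECH, which inserts iron into protoporphyrin, was at -0.14 ± 0.20 (adjusted p = 0.65).

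Of 16 genes of heme breakdown and iron handling, 6 fell and TFRC rose (median -0.50; 2 fell without the block, 3 without number 1 or either of its libraries, and 0 without number 2). TFRC, the transferrin receptor, went from 23.4, 11.7 and 21 CPM to 116, 61.8 and 43 CPM (1.92 ± 0.30, adjusted p = 0.0011; 0.052 without the block). BLVRB, a biliverdin reductase, fell from 185, 141 and 89.3 CPM to 65.4, 45.5 and 64.6 CPM (-1.26 ± 0.28; adjusted p 0.14 without number 2). HMOX1, heme oxygenase 1, was at 196, 255 and 98.4 CPM and 44.7, 59.1 and 69.5 CPM, with no overlap, and did not pass (-1.56 ± 0.58, adjusted p = 0.09); DESeq2 gave 0.022 and limma-voom 0.0039. FTL, the ferritin light chain, fell from 6267, 6058 and 4271 CPM to 3119, 3058 and 3436 CPM, but 24.1% of its reads were unique and the call was lost without number 2 (adjusted p 0.13). Of 17 NRF2 targets, 3 rose and 5 fell (median -0.47), against 15.8% and 14.3% of all genes tested. Without the block 0 rose and 2 fell. The falls numbered 2 without number 2, either library of number 1, the ALA library of number 2 or the ConA+ALA library of number 3, 3 without number 1, and 9 without the ALA library of number 3. OSGIN1, a stress-induced growth inhibitor gene, fell from 23.4, 21.5 and 21.5 CPM to 9.49, 10.6 and 9.74 CPM (-1.16 ± 0.27, adjusted p = 0.0048).

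**Figure D4:**
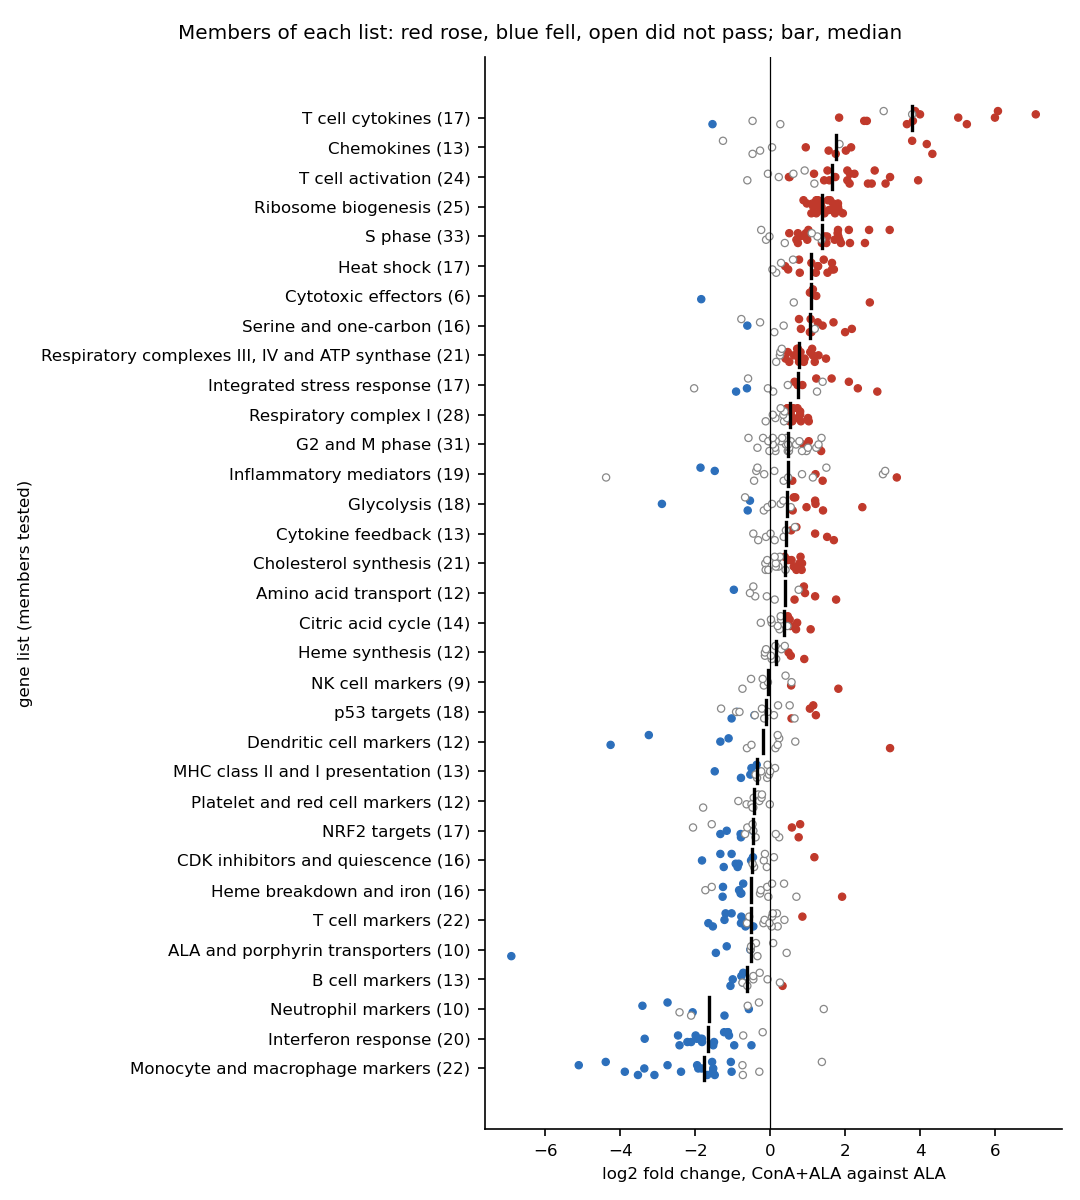
Log2 fold change (ConA+ALA against ALA, horizontal axis) of the tested members of the 33 gene lists, ordered by median (bar), with the number tested in brackets; red rose, blue fell, open did not pass. T cell cytokines have the highest median, 3.79, and monocyte and macrophage markers the lowest, -1.76.

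Among single genes, the largest rises outside the lists included KRT27, a keratin gene, from 2.15, 1.83 and 6.21 CPM to 71.1, 105 and 74.6 CPM (4.68 ± 0.37, adjusted p = 1.8e-05), and SH2D5, from 0.166, 0.196 and 0 CPM to 6.43, 5.98 and 6.62 CPM (5.57 ± 0.59). INHBA, encoding activin A, went from 0.828, 3.21 and 23 CPM to 47.1, 194 and 127 CPM, with a wide error (4.70 ± 1.23, adjusted p = 0.032; 0.17 without the block, 0.26 without number 1, 0.18 without number 2, and lost without any library except the ConA+ALA library of number 3). Among the largest falls, CLEC7A (dectin-1, a receptor for fungal glucan, overlapping CLEC1B) fell from 11, 5.04 and 4.42 CPM to 0.518, 0.15 and 0 CPM (-4.84 ± 0.62). MERTK, a receptor for the uptake of dying cells, fell from 40.5, 14.6 and 2.02 CPM to 1.25, 0.449 and 0 CPM (-4.82 ± 0.67). DNASE1L3, a secreted nuclease of dendritic cells and macrophages, had 160 reads in the ALA group (4.386, 3.141 and 0.4658 CPM) and 0 in the ConA+ALA group. That is at least 48.3-fold lower against a floor of 3 reads over the group. The chemerin receptor gene CMKLR1 had 256 reads against 2, a ratio of 116 (95% counting interval 31.8 to 963). Most of the 256 reads were in number 1. Its levels were 9.4, 1.2 and 0.78 CPM with ALA and 0.086, 0 and 0 CPM with ConA and ALA.

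Most genes that responded with ALA also responded without it. Of the 2109 that rose, 1896 (89.9%) also rose with ConA alone, which is 66.8% of the 2839 rises there, and of the 1913 that fell, 1577 (82.4%) also fell, 55.6% of 2837 (21.2% of all genes). The 2 comparisons share no library but share the numbers and the estimate of the spread. Among genes that rose in both, the median log2 fold change was 0.85 with ALA and 1.03 without, and among those that fell in both it was -0.91 and -1.13. The difference was below 0 for 1490 of the 1896 shared rises and above 0 for 1183 of the 1577 shared falls. Over all genes tested it was below 0 for 6717 and above 0 for 6641. Opposite calls were made for 4 genes: CD9, SAMD14, PLA2G2F and MMP12. With ALA none of the 4 passed without the block, CD9 was lost without number 2 (adjusted p 0.10), and the others were lost without several of the numbers. The direct test of the difference called 0 genes by edgeR, with 1004 (7.52%) at an unadjusted p under 0.05, 40 called by DESeq2 and 6 by limma-voom. That test missing its threshold does not show that the responses were alike.

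SLC27A6, a fatty acid transporter and the gene with the smallest p for the difference, was at 50.6, 14.8 and 8.85 CPM with ALA and 33.7, 8.82 and 9.1 CPM with ConA and ALA (-0.45 ± 0.19), and at 27.3, 7.11 and 6.57 CPM untreated and 72.9, 23.1 and 12.2 CPM with ConA alone (1.35 ± 0.19). The difference was -1.80 ± 0.27 (95% interval -2.38 to -1.22), with an adjusted p of 0.1 by edgeR, 1.55e-05 by DESeq2 and 0.0065 by limma-voom. DESeq2 also called the difference for PLA2G5, PLK2, CD9, MARCO, CCDC3, S100A8 and PRF1, described next. Of these, limma-voom called it for PLA2G5, MARCO and CCDC3. PLA2G5, a secreted phospholipase, was at 2.93, 0.897 and 0.735 CPM with ConA and ALA and at 119, 45.7 and 19.1 CPM with ConA alone, from 0.331, 0.523 and 0.155 CPM and 0.36, 0.194 and 0.407 CPM without ConA. Its rise with ALA was lost without the block, number 1 or either of its libraries (adjusted p 0.11, 0.22, 0.14 and 0.083). Its levels with ConA and ALA were below every library with ConA alone, and the difference was -5.18 ± 0.81 (interval -6.94 to -3.43, adjusted p = 0.13). PLK2, a polo-like kinase, rose by 1.22 ± 0.22 with ALA and by 3.02 ± 0.23 without (-1.80 ± 0.31, adjusted p = 0.13). CD9, a tetraspanin, was at 39.1, 20.1 and 37.3 CPM and 107, 57.4 and 43.6 CPM with ALA, and at 28.8, 20.7 and 30.4 CPM untreated and 22.6, 11.2 and 11.3 CPM with ConA alone. MARCO fell more with ALA (-3.09 ± 0.27 against -1.22 ± 0.24), and CCDC3 and S100A8, both lost without number 1, less (-0.95 ± 0.25 against -2.85 ± 0.27 and -0.57 ± 0.14 against -1.64 ± 0.15). PRF1 (perforin) rose by 1.06 ± 0.20 with ALA and was at -0.29 ± 0.20 without (difference 1.35 ± 0.29, adjusted p = 0.24; its rise was lost without the block, adjusted p = 0.48).

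IDO1, the interferon-induced enzyme that degrades tryptophan, was picked out after its values had been seen. It was at 139, 189 and 158 CPM with ALA and 224, 199 and 196 CPM with ConA and ALA, and at 79.7, 144 and 363 CPM untreated and 1918, 1384 and 1687 CPM with ConA alone. With ALA the step was small, though without overlap (0.36 ± 0.46, adjusted p = 0.62; 0.043 in a fit of the 6 libraries alone), while every library with ConA alone was above every other library of the series. The difference between the responses was -2.86 ± 0.67 (95% interval -4.44 to -1.27), with an adjusted p of 0.46 by edgeR, 0.0097 by DESeq2 and 0.046 by limma-voom. For IL2 the difference lay above 0: it rose by 3.81 ± 0.57 with ALA and was at 1.57 ± 0.55 without, where it did not pass (adjusted p = 0.053; difference 2.24 ± 0.77, interval 0.45 to 4.03, adjusted p = 0.61). IFNG rose by 5.25 ± 0.55 with ALA and 5.21 ± 0.53 without, with an interval of the difference of -1.60 to 1.68. For IL2RA the difference was -0.53 ± 0.48 (interval -1.62 to 0.55), and for ALAS1 it was -1.06 ± 0.52 (interval -2.26 to 0.14, adjusted p = 0.71).

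**Figure D5:**
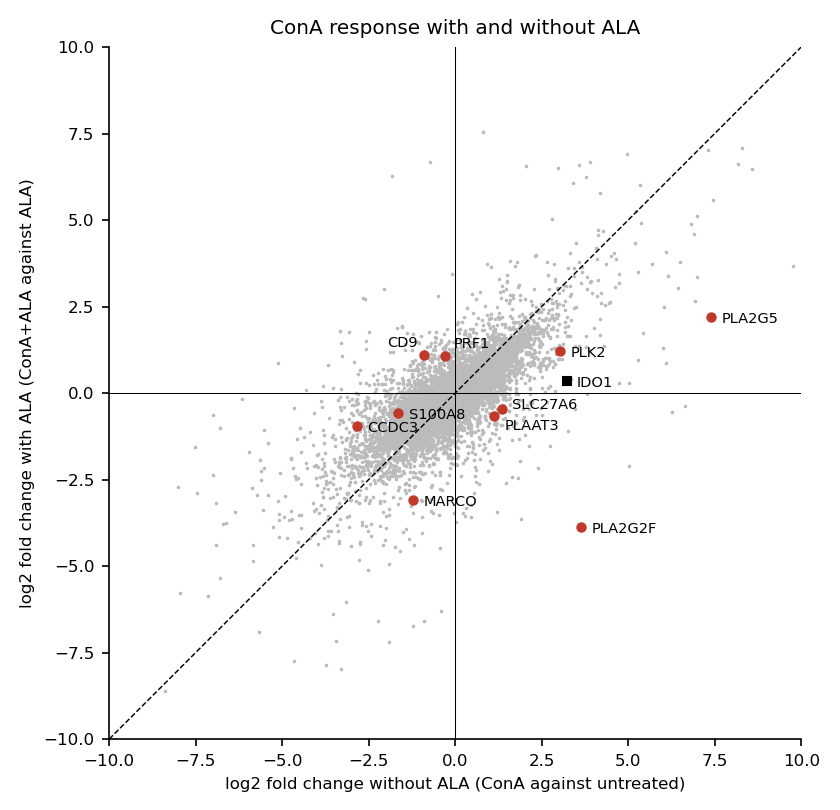
Log2 fold change of each gene tested in response to ConA without ALA (horizontal axis) and with ALA (vertical axis); the dashed line marks equal responses, red points are the 10 genes with a symbol and the smallest p for the difference, and the black square is IDO1. PLA2G5, IDO1 and PLK2 lie below the line and CD9 and PRF1 above it, and no gene passed the adjusted threshold for the difference by edgeR.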

How the data were processed

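RNA of the 12 PBMC libraries was measured as poly(A) RNA-seq, in 4 groups of 3 defined by the titles. The deposited tables give exon reads per gene as counts with no normalization by the authors, per the file headers, and also TPM computed by the authors, which were not used here. The submitters' processing notes name CanFam3.1 and bcl2fastq; no source used here names the aligner or counter, or says whether counting used strand. Each table lists 29822 genes, of which 17892 have a symbol.

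The main test, on total exon counts, was the robust quasi-likelihood F-test of edgeR 4.0.16 (R 4.3.3), with TMM scaling, low counts removed by filterByExpr, all 12 libraries, a mean per group and the number as a block. The threshold was a Benjamini-Hochberg adjusted p under 0.05 over 13358 genes. The difference between ConA responses is a contrast of the same model. Numbers were taken to pair libraries: deviations from group means correlated at 0.392 to 0.694 for same-numbered libraries of ALA and ConA+ALA, and at 0.376 to 0.748 over all 18 such pairs. The biological coefficient of variation was 0.217 with the block and 0.422 without it. The script was tested on simulated data.

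Alternatives were no block, the 6 libraries alone, DESeq2 1.42.0, limma-voom (limma 3.58.1), other scaling, filters and read classes, and leaving out each library or number. The comparison, the 33 gene lists and the rules were chosen with earlier results of these data known. Named genes were 12 named whatever their result (among them IL2RA, IFNG, HMOX1 and ALAS1), the 10 largest rises and falls (mean of at least 50 counts), the 6 largest differences in CPM each way, up to 6 members of each list by smallest p, and the 10 smallest p of the difference. IDO1, CCNA2, MMP12, SAMD14 and every other gene named outside this rule were chosen after their values were seen. Intervals of counts cover counting error only. A few list members are not reported here.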

Additional observations from a re-analysis of the deposited data

Results flagged for a closer look

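For 5 of the genes described, ConA moved all 3 numbers in opposite directions with and without ALA, while the direct test of the difference did not pass by edgeR for any of them. CD9, PLAAT3 and PLA2G2F were named for a small p of this difference, and MMP12 and SAMD14 after their values were seen. Opposite movement was therefore partly built into their choice, and its share over all genes tested is not given here. CD9 was at 1.09 ± 0.24 with ALA and -0.89 ± 0.25 without, a difference of 1.97 ± 0.34 with an adjusted p of 0.16; its libraries stood at 39.1, 20.1 and 37.3 CPM with ALA and 107, 57.4 and 43.6 CPM with ConA and ALA, and its rise had an adjusted p of 0.1 without number 2. PLAAT3 was at -0.65 ± 0.24 with ALA and 1.12 ± 0.24 without, a difference of -1.78 ± 0.34 with an adjusted p of 0.16 (8.28, 13.2 and 9.94 CPM against 5.96, 8.15 and 5.7 CPM with ALA). Unlike the others, PLAAT3 did not have opposite calls. PLA2G2F was at -3.87 ± 1.28 with ALA and 3.64 ± 0.85 without, a difference of -7.51 ± 1.49 with an adjusted p of 0.17; it had 21 reads with ALA and 1 with ConA and ALA, so the fold rests on few reads. MMP12 was at 1.76 ± 0.57 with ALA and -3.07 ± 0.62 without, a difference of 4.84 ± 0.83 with an adjusted p of 0.29, from 23.4, 2.42 and 6.83 CPM to 43.9, 27.7 and 14.3 CPM with ALA. SAMD14 was at 2.74 ± 0.90 with ALA and -2.67 ± 0.94 without, a difference of 5.42 ± 1.30 with an adjusted p of 0.35, at 0.29, 0.523 and 0 CPM and 0.561, 2.62 and 2.57 CPM with ALA. DESeq2 called the difference for all 5, and limma-voom for MMP12 alone. Groups of 3 libraries are too small for a check of outlying samples.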

How the results depend on the processing

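The number of genes called depended most on the block and on single numbers. Without the replicate block, which pairs the libraries, 680 genes rose and 405 fell, in place of 2109 and 1913, and 39 of the 66 list counts moved by over 1.5 times. Leaving out a number or a library gave 1210 to 2102 rises and 785 to 1812 falls, and moved 21 list counts without number 1, 24 without number 2 and 4 without number 3; with fewer libraries the residual degrees of freedom drop. A fit of the 6 libraries alone (2316 and 2058), DESeq2 (2239 and 2200) and limma-voom (2414 and 2330) kept both counts within 1.5 times. So did RLE size factors, no filter on low counts, a stricter filter (mean of 50 counts), unique exon reads and leaving out mitochondrial genes. The difference between the ConA responses called 0 genes by edgeR, 40 by DESeq2, 6 by limma-voom and 9 with no filter on low counts, and 0 to 14 when a number or library was left out (14 without number 3, and 3 without the ALA or the ConA+ALA library of number 3); the cause was not tested. No named gene that was called changed direction under these alternatives. Of 298 named genes 228 were called. Of these 228, 122 lost their call without the block, 60 without number 1, 65 without number 2 and 13 without number 3. With 3 libraries a group, changes of 2-fold or less can be missed at this depth.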

Other observations

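The p53 target list, MHC genes and mitochondrially encoded genes were also measured, where 15.8% of all genes tested rose and 14.3% fell. Of 18 p53 targets, 4 rose and 3 fell (median -0.11; 0 and 1 without the block), and GADD45A, a stress gene that restrains the cell cycle, fell from 136, 226 and 177 CPM to 59.3, 106 and 102 CPM (-1.03 ± 0.18, adjusted p = 0.00056 by edgeR; 0.2 without the block). FAS, the death receptor, rose from 115, 166 and 269 CPM to 291, 384 and 397 CPM (1.06 ± 0.21, adjusted p = 0.2 without the block), and CDKN1A (p21) did not pass (0.10 ± 0.18). Of 13 genes of antigen presentation, 5 fell and 0 rose (0 fell without the block), led by DLA-DOA (-0.78 ± 0.14) and CTSS (-1.48 ± 0.38), and 1 to 3 fell without number 1, number 2, any of their libraries or the ConA+ALA library of number 3; B2M was at -0.03 ± 0.12. Of 13 protein-coding genes of the mitochondrial genome, 4 rose with the block and 0 without it (median 0.56), and MT-ND1 was at 996, 4453 and 6161 CPM and 2257, 10904 and 8124 CPM, lowest in number 1 of each group.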
